A study of Mus musculus with 4 samples.

Results

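The unfolded protein response and endoplasmic reticulum (ER) chaperone genes were followed in 4 preparations of BALB/c mouse mast cells, each measured on 1 Affymetrix whole-transcript array. The set was a list of 33 genes that covers ER stress sensors, chaperones, ER-associated degradation and the integrated stress response. Of these, 32 had a probe set assigned to a single gene symbol, out of 22180 genes in all, and 31 were above background on each of the 4 arrays. Pdia4 shares its probe set with another symbol and was not analysed here, and Derl3 was below background on each array. All values but sums over gene lists are log2 values as deposited, so a difference of 1 is a 2-fold change. Levels of the members are compared within a gene and never between genes. Sums of linear signal over a list, given further on, are compared between arrays, and the brightest probe sets weigh most in them.

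In 3 groups the cells were bone marrow-derived mast cells (BMMCs), cultured over 3 to 4 weeks with 10 ng/ml of interleukin-3 and 10 ng/ml of stem cell factor. For a further 6 days they were kept in normal medium (control), with TGF-β1 at 5 ng/ml, or on Chinese hamster ovary (CHO) cells that express mouse Dll1, a ligand of Notch receptors. After the Dll1 coculture, c-Kit-positive cells were taken with magnetic beads. The fourth group was mucosal mast cells of naive mice, sorted from small intestinal lamina propria as positive for FcεRI and c-Kit. Feeder cells and bead selection go with Dll1, and tissue source and sorting go with the intestinal cells, so their parts cannot be told apart. The labels do not say how many mice or cultures stand behind an array. With 1 array per group there is no replicate error, no test was possible, and a difference below describes these arrays.

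The unfolded protein response matches the folding capacity of the ER to its protein load. The sensors Ern1 (IRE1), Eif2ak3 (PERK) and Atf6 are held by the chaperone Hspa5 (BiP) until unfolded proteins draw it away. IRE1 then splices Xbp1 mRNA, PERK slows translation and so favours Atf4, and ATF6 is cut to release a transcription factor. Their targets include chaperones, disulfide isomerases and the degradation machinery, and, in the Atf4 branch, Ddit3 (CHOP), Trib3, Asns and Ppp1r15a. Mast cells store proteases in granules, and these proteins pass through the ER when they are made.

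Promoter sequences were searched for elements known from ER stress genes, which some of the members carry. RefSeq windows from 250 bases before to 50 bases after the start of transcription (GRCm38.p6) matched 29 of the 33 genes; those of Hyou1, Manf, Derl1 and Atf6 were not used here. The ER stress element (ERSE) was searched on both strands as CCAAT and CCACG with 9 bases of any kind between them. It was present for 9 of the 29 genes, against 37 of 27025 genes with a window (0.137%), those 9 included. Because these elements are known from ER stress genes, an excess among the members follows in part from their choice and is no result. The 9 were Hspa5, Hsp90b1, Calr, Canx, Pdia6, Dnajc3, Creld2, Syvn1 and Derl3. The matches are printed 5′ to 3′ on the strand that reads CCAAT first, with the 19 matched bases in capitals, to show how the spacer varies between fixed ends.
Hspa5, chr2:34772020-34772048, plus strand: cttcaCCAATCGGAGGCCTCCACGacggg
Creld2, chr15:88819515-88819543, minus strand: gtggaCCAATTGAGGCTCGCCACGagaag
Pdia6, chr12:17266486-17266514, plus strand: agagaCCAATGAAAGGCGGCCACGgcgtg
Dnajc3, chr14:118937822-118937850, plus strand: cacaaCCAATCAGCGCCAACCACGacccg
Calr, chr8:84847070-84847098, plus strand: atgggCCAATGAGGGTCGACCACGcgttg
Canx, chr11:50325795-50325823, minus strand: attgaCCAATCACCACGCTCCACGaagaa
Hsp90b1, distal, chr10:86705633-86705661, minus strand: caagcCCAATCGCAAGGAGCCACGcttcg
Hsp90b1, proximal, chr10:86705528-86705556, plus strand: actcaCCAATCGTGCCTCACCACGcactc
Syvn1, chr19:6046527-6046555, plus strand: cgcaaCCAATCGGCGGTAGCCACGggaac
Derl3, chr10:75893237-75893265, minus strand: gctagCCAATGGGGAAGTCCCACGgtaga

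Among the ERSE matches, the one nearest to a start of transcription was that of Syvn1, 44 bases before it, and the distal one of Hsp90b1 began 212 bases before it. A related element, ERSE-II, was searched as ATTGG and CCACG with 1 base between them and was found for Herpud1 and Dnajb11, 2 of the 29 genes (6.9%), against 12 of 27025 (0.0444%). The C/EBP-ATF response element (CARE), searched as TGATGNAAN, was found for Asns, Chac1, Herpud1 and Trib3, 4 of the 29 genes (13.8%), against 4.50% of all genes. The core of the unfolded protein response element, TGACGTGG, was in no window of the 29 genes and in 0.714% of all genes. ERSE and ERSE-II both contain the 5 letters CCACG, and these alone were present in 35.5% of all genes. The ERSE-II and CARE matches are printed in the same way, on the strand that reads the motif.
Herpud1 ERSE-II, chr8:94386368-94386396, plus strand: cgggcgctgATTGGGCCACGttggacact
Dnajb11 ERSE-II, chr16:22857843-22857871, plus strand: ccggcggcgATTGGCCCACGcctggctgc
Asns CARE, chr6:7693214-7693242, minus strand: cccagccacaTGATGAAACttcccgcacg
Chac1 CARE, chr2:119351038-119351066, minus strand: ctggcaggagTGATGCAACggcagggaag
Herpud1 CARE, chr8:94386306-94386334, minus strand: gggtgcgggcTGATGCAACccgccgtggt
Trib3 CARE, chr2:152344029-152344057, plus strand: cccgcccggcTGATGTAAAcctgagctaa

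Hspa5 had the highest difference of all members for intestinal minus control, and Herpud1 was the gene with matches to both ERSE-II and CARE. The 250 bases before the start of each are printed whole, on the strand of the gene, with the matches in capitals. In the Hspa5 window the CCAAT letters, on either strand, occur 4 times and CCACG once, inside the 1 exact ERSE match.
Hspa5, chr2:34771840-34772089, plus strand: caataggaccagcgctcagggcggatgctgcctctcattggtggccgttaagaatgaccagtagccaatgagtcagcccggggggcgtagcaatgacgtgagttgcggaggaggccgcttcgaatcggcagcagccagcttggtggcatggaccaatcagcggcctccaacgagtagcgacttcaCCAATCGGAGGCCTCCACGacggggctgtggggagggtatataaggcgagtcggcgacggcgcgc
Herpud1, chr8:94386179-94386428, plus strand: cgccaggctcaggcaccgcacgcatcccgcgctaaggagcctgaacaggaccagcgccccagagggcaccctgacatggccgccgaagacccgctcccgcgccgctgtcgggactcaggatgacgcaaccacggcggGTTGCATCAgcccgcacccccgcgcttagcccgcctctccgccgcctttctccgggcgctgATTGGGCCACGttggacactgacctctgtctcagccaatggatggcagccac

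A match is a run of letters and was not tested for binding.

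Background was judged from 1438 probe sets for receptors of smell and taste, which mast cells are not known to use, and the limit set at their 95th percentile lay between 5.11 and 5.21. Kit (11.75 to 12.65) and Fcer1a (11.66 to 12.41), the genes behind the sorting markers, were above it on each array, with their lowest values in intestinal cells. Most other mast cell markers were also lower there than in control, but Hdc was higher (6.90 against 6.62). As a gauge of technical spread, the log2 differences of the 2 probe sets of one gene, both above background, were compared. The standard deviation of the gap between them was divided by the square root of 2. It was 0.24 for TGF-β1 minus control, 0.34 for Dll1 minus control and 0.48 for intestinal minus control. That gauge covers no variation between cultures or animals.

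Some unfolded protein response genes were higher in intestinal mast cells than in control BMMCs, led by the chaperone Hspa5 and the stress factors Ppp1r15a and Ddit3. Of 31 members above background, 8 were at least 2-fold higher (25.8%), against 4.47% of 12716 genes tested. They were Hspa5, Ppp1r15a, Ddit3, Dnajb9, Herpud1, Atf4, Sdf2l1 and Creld2. No member was at least 2-fold lower, against 6.74% of genes. At 1.5-fold, 12 members were higher, with Hyou1, Pdia6, Dnajc3 and Calr added, against 10.3% of genes, and none was lower, against 14.9%. The median member differed by 0.33 and the median gene by -0.0048, and 25 of 31 members were above 0, against 49.5% of genes. On the intestinal array 19 of 31 members had their highest value of the 4 arrays, against 29.8% of 13323 genes above background on any array.

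**Figure D1:**
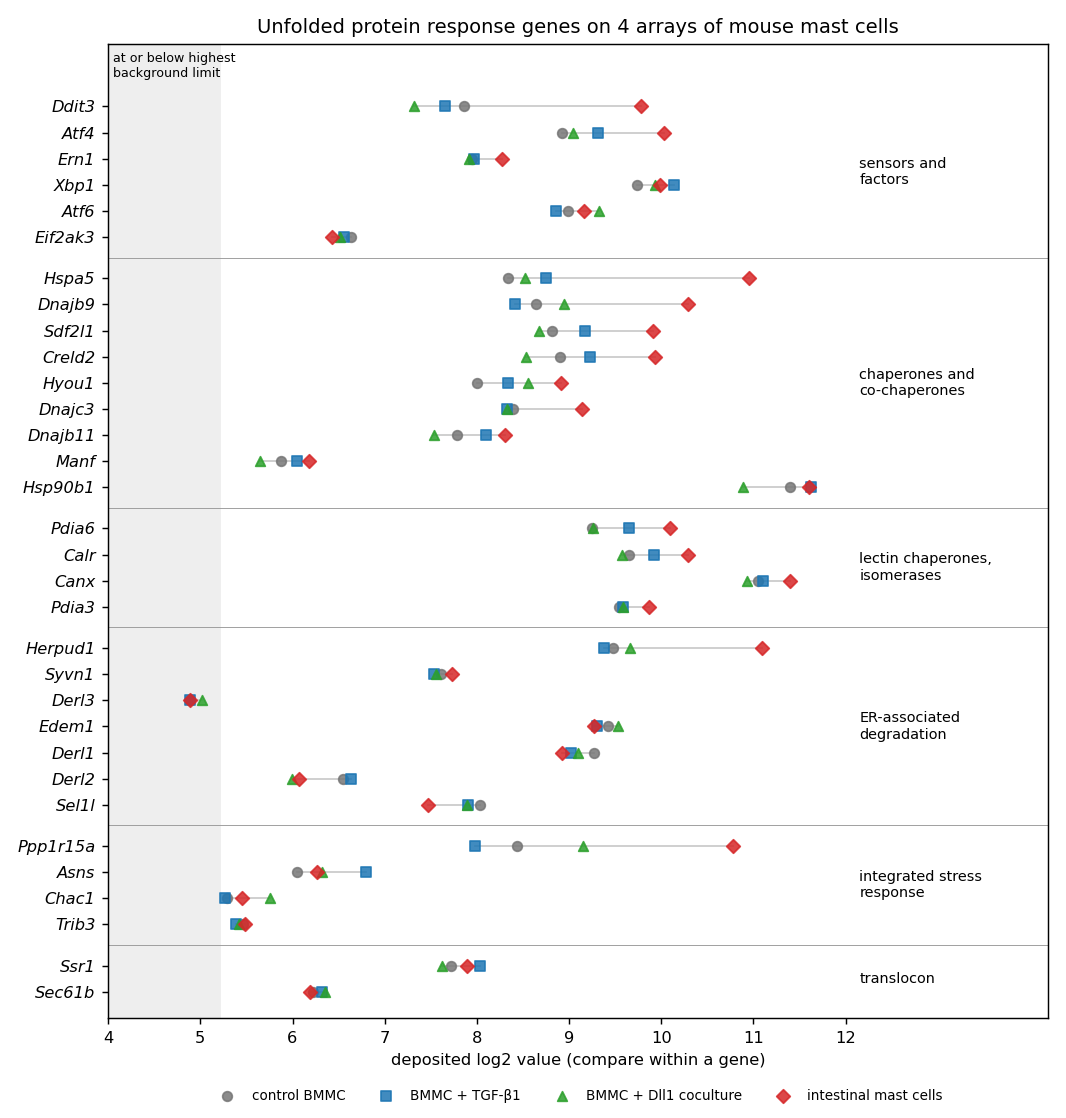
Deposited log2 values (x axis) of the 32 measured genes (rows, grouped by role) on the 4 arrays, 1 point for each array, with a grey line from the lowest to the highest. The intestinal point stands apart to the right for Hspa5, Ppp1r15a, Ddit3, Dnajb9 and Herpud1, while most other genes span less than 1 unit, and Derl3 lies in the shaded background range.

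Hspa5, the ER member of the HSP70 family and the main sensor partner, read 8.34 on the control array, 8.75 with TGF-β1, 8.52 with Dll1 and 10.95 in intestinal cells. The 3 cultured arrays lay within 0.41 of each other and the intestinal array was 6.11-fold above control. It ranked 95th among the 12716 genes tested, counted from the largest upward difference.

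The co-chaperones of the HSP40 family, which bring unfolded clients to Hspa5 and stimulate its ATPase, did not move as one. Dnajb9 (ERdj4) read 8.64, 8.42, 8.95 and 10.29 in the order control, TGF-β1, Dll1 and intestinal, 3.14-fold above control in intestinal cells. Dnajc3 (p58IPK), which also restrains PERK, read 8.39, 8.32, 8.33 and 9.14. Dnajb11 (ERdj3) read 7.79, 8.10, 7.53 and 8.31. Only Dnajb9 passed 2-fold, while Dnajc3 differed by 0.75 and Dnajb11 by 0.52.

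Sdf2l1, a partner of Dnajb11, read 8.81, 9.17, 8.68 and 9.91, and Creld2, an ER protein with disulfide isomerase activity, read 8.90, 9.23, 8.53 and 9.93. Both were just past 2-fold in intestinal cells, at 2.14-fold and 2.04-fold. With array medians subtracted, Creld2 differed by 0.97 and no longer passed. Hyou1, a large HSP70-like protein that exchanges nucleotide on Hspa5, read 8.0, 8.33, 8.55 and 8.91, a difference of 0.91. Manf, a secreted ER stress protein, differed by 0.30 and Hsp90b1 (GRP94), the ER form of HSP90, by 0.20. All 9 chaperones and co-chaperones were above their control value in intestinal cells, with a median difference of 0.91, and 4 passed 2-fold.

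Calnexin (Canx) and calreticulin (Calr) hold glycoproteins while they fold, and Pdia3 and Pdia6 form and shuffle disulfide bonds. None of these 4 genes passed 2-fold. Pdia6 read 9.25, 9.65, 9.26 and 10.09, a difference of 0.84 for intestinal minus control. Calr read 9.65, 9.92, 9.58 and 10.29, a difference of 0.64. Canx (0.35) and Pdia3 (0.33) differed less, and all 4 had their highest value in intestinal cells.

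The sensors themselves were nearly level across the arrays. Ern1 read 7.95, 7.97, 7.91 and 8.27. Eif2ak3 read 6.64, 6.55, 6.52 and 6.43, and Atf6 read 8.99, 8.85, 9.32 and 9.17. For none of the 3 did the highest and lowest arrays differ by more than 0.47. The factors downstream of PERK stood apart from them. Ddit3 read 7.86, 7.66, 7.32 and 9.78, which put intestinal cells 3.79-fold above control and 5.50-fold above the Dll1 array. Atf4 read 8.92, 9.31, 9.04 and 10.03, 2.15-fold above control. Xbp1 read 9.74, 10.13, 9.94 and 9.98, with its highest value under TGF-β1. The table holds 1 value for Xbp1 and does not separate its spliced from its unspliced mRNA.

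ER-associated degradation moves misfolded proteins to the cytosol for the proteasome. Of its 6 members above background, 1 passed 2-fold in intestinal cells, against 4.47% of genes. Herpud1, a membrane protein that assembles the degradation complex, read 9.47, 9.38, 9.66 and 11.09, 3.07-fold above control. The other members of that complex did not follow it. Sel1l, the adaptor of the ubiquitin ligase Syvn1 (HRD1), read 8.03, 7.90, 7.89 and 7.47, a difference of -0.56 for intestinal minus control. Syvn1 stayed between 7.54 and 7.73. Of the derlins, which form part of the exit channel, Derl1 differed by -0.35 and Derl2 by -0.48, and Derl3 read between 4.88 and 5.02, below background throughout. Edem1, a lectin-like protein that marks glycoproteins for degradation, differed by -0.15. The median of the 6 measured above background was -0.25, the one role with a negative median. Apart from Herpud1, only Sel1l was past the gauge of technical spread (0.48), and by little, so the direction of these small differences is uncertain. Dimmer second probe sets differed by -0.03 for Derl2 and by 0.10 for Edem1, the other way from its first.

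Of 4 targets of the integrated stress response, 1 passed 2-fold in intestinal cells, against 4.47% of genes. Ppp1r15a (GADD34), which returns the phosphatase that ends the translation block, read 8.44, 7.98, 9.15 and 10.78, 5.06-fold above control in intestinal cells. Trib3, a pseudokinase induced by Atf4 and CHOP, stayed between 5.38 and 5.48, just above background. Chac1, which degrades glutathione, read 5.29, 5.26, 5.75 and 5.45. Asns, asparagine synthetase, read 6.05, 6.79, 6.32 and 6.27. The intestinal differences of Trib3 (0.01), Chac1 (0.16) and Asns (0.21) were all below 2-fold, and each of the 3 promoters holds a CARE match. Trib3 and Chac1 lie near the background limit, where differences are compressed, so their small differences do not show that a change was absent. The translocon genes Sec61b (-0.04) and Ssr1 (0.18) were level. Second probe sets of both differed the other way, by 0.58 for Sec61b and -0.35 for Ssr1, so their direction is uncertain.

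Measured against all 3 cultured arrays, the intestinal array was at least 2-fold above the highest of them for 5 of 31 members, against 2.18% of 12350 genes, and for no member was it at least 2-fold below the lowest, against 2.32%. These were Hspa5, Ppp1r15a, Ddit3, Dnajb9 and Herpud1. Against the TGF-β1 array alone, 5 members were at least 2-fold higher (4.06% of genes) and none lower (4.56% of genes). Against the Dll1 array alone, 7 were higher (3.56% of genes) and none lower (4.14% of genes). At 1.5-fold, 9 members were higher against TGF-β1 (9.12% of genes) and 13 against Dll1 (9.88% of genes). These comparisons share the intestinal array. Ppp1r15a was 6.94-fold above the TGF-β1 array and 3.09-fold above the Dll1 array, and Hspa5 was 4.59-fold and 5.38-fold above them.

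**Figure D2:**
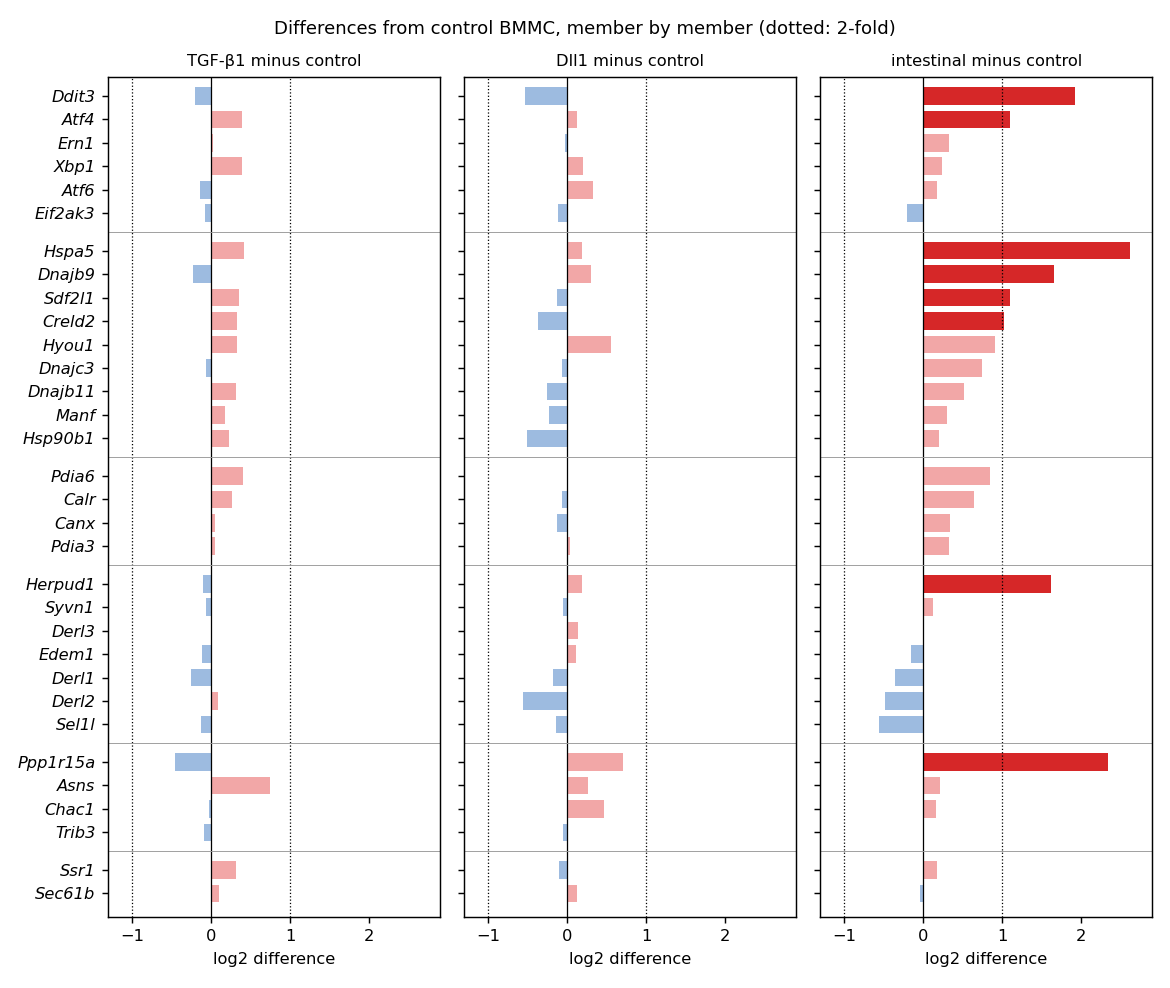
Log2 difference from control BMMCs (x axis) for each of the 32 genes in TGF-β1-treated, Dll1-cocultured and intestinal cells, 1 bar for each gene, with dotted lines at 2-fold. Full red bars, the 8 genes at least 2-fold higher, occur in the intestinal panel, and no bar of the TGF-β1 or Dll1 panel reaches a dotted line.

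With TGF-β1, no member was at least 2-fold higher (0.508% of 12019 genes tested) or lower (0.89% of genes). At 1.5-fold, Asns alone was higher, at 1.67-fold, against 2.52% of genes, and no member was lower, against 4.01%. The median member differed by 0.06 and the median gene by -0.03, and 18 of 31 members were above 0, against 45.2% of genes. Small differences in one direction lay among the chaperones. Of the 9, 7 were above control, with Hspa5 at 0.41, Sdf2l1 at 0.36 and Hyou1 at 0.33, and the exceptions were Dnajb9 (-0.22) and Dnajc3 (-0.07). Pdia6 (0.40), Xbp1 (0.39) and Atf4 (0.39) were similar in size. The gauge of technical spread from probe sets of a gene was 0.24 in this comparison, and no sample error is known. Lowest was Ppp1r15a, at -0.46.

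With Dll1, too, no member was at least 2-fold higher (1.64% of 12756 genes tested) or lower (1.78% of genes). At 1.5-fold, Ppp1r15a alone was higher, at 1.64-fold, against 4.92% of genes, and no member was lower, against 7.47%. The median member differed by -0.05 and the median gene by 0.0028, and 14 of 31 members were above 0, against 50.4% of genes. Chaperones lay on both sides of control. Hyou1 (0.55) and Dnajb9 (0.31) were above it, and Hsp90b1 (-0.51), Creld2 (-0.37) and Dnajb11 (-0.25) were below. Hsp90b1 read 11.39, 11.63, 10.88 and 11.60, so the Dll1 array was its low one. Ddit3 (-0.54) and Derl2 (-0.56) were the lowest members, but the second probe set of Derl2 differed by -0.14 and the mean of both by -0.35.

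The treatments differed from each other most in Ppp1r15a, which was 2.25-fold higher with Dll1 than with TGF-β1. It was the 1 member at least 2-fold higher in that comparison (2.19% of 12648 genes), and none was lower (1.9% of genes). At 1.5-fold it was still the 1 member higher (6.29% of genes), and Hsp90b1 (-0.74), Creld2 (-0.69) and Derl2 (-0.64) were lower with Dll1, 3 of 31 (9.68%), against 7.21% of genes. The mean of the 2 probe sets of Derl2 differed by -0.27 here.

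Of 114 further genes in 5 lists, 106 were measured and 103 were above background on the intestinal or the control array. At least 2-fold higher were 5 of them, Atf3, Slc7a11, Edem3, Psat1 and P4hb, and 1, Sesn2, was lower, beside 4.47% and 6.74% of all genes. The median of the 103 was 0.08. Atf3, a stress-induced factor that is also an immediate early gene, read 5.19, 5.37, 5.62 and 8.96, 13.6-fold above control. The cystine transporter Slc7a11 read 5.13, 4.61, 6.47 and 7.78, 6.26-fold above control in intestinal cells and 2.52-fold above it with Dll1.

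By role, Edem3, which trims mannose from misfolded glycoproteins, was 2.58-fold higher among 18 further degradation genes, and its relative Edem2 differed by 0.90. P4hb (PDI), at 2.02-fold, was the 1 of 22 further folding enzymes past 2-fold, and the oxidase Ero1a differed by -0.73. None of 21 translocon, signal peptidase and glycosylation genes passed 2-fold, with Ssr2 (0.58) and Sec62 (0.52) the largest. None of 17 sensing and signalling genes did either, with Eif2ak2 at -0.62. Among 25 Atf4 and amino acid response targets, Psat1 was 2.16-fold higher and Sesn2 2.31-fold lower, and the list's median was 0.05. With TGF-β1 none of 102 such genes passed 2-fold, and with Dll1 Slc7a11 alone did, of 103.

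**Figure D3:**
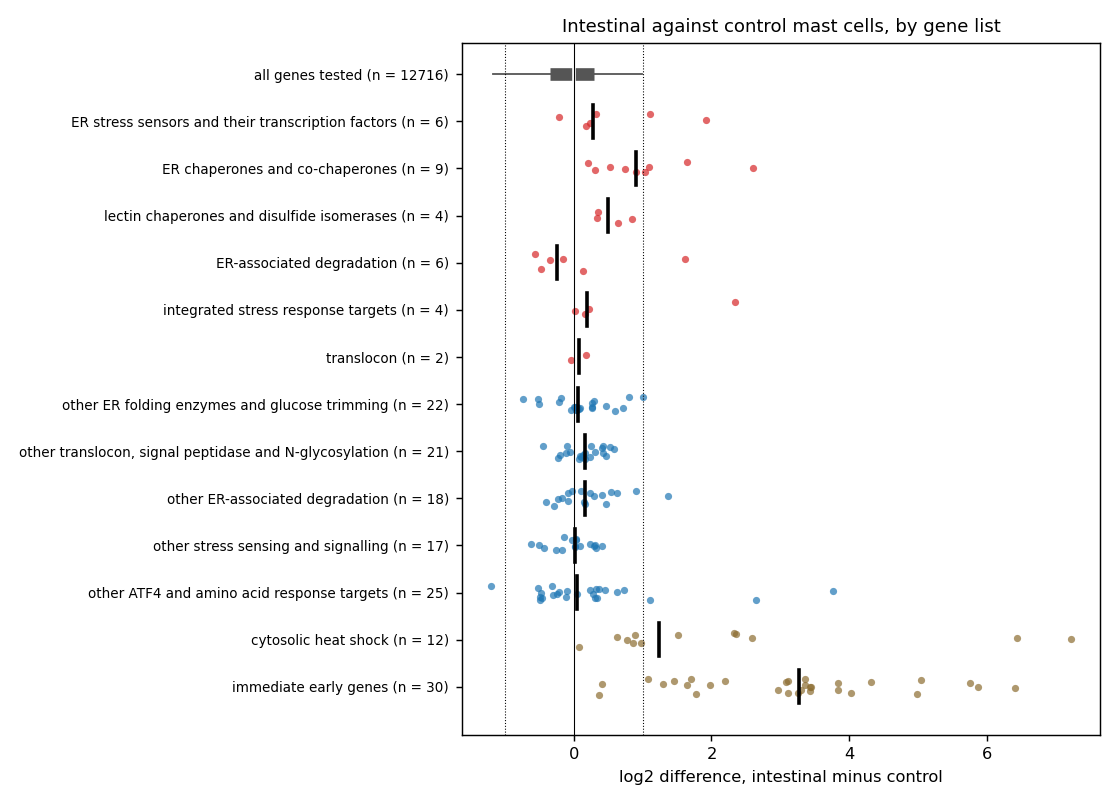
Log2 difference for intestinal minus control (x axis) by gene list, 1 point for each gene above background on either array, with a black bar at the list's median. Red lists hold the members, blue lists other pathway genes and brown lists genes outside the pathway, and the grey bar spans the 25th to the 75th percentile of all 12716 genes, with a line from the 5th to the 95th percentile. The medians lie at 0.91 for the chaperones, 1.24 for heat shock and 3.28 for immediate early genes, and between 0.02 and 0.16 for the lists of other pathway genes.

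Genes of cytosolic heat shock and immediate early genes moved with the same array. Of 12 heat shock genes, 6 were at least 2-fold higher in intestinal cells (4.47% of genes), with a median of 1.24. The summed linear signal of the 12 was 12941 against 2816 in control, 3023 with TGF-β1 and 2719 with Dll1. Hspa1a (4.53 in control and 11.77 in intestinal cells) and Hspa1b (4.98 and 11.42) are large parts of the intestinal sum. Both were below background on the cultured arrays. Of 30 immediate early genes, 28 were at least 2-fold higher in intestinal cells (median 3.28, 4.47% of genes) and 16 with Dll1 (median 1.19, 1.64% of genes). Their summed signal was 39542 and 15519 against 3818 in control and 3977 with TGF-β1. Ppp1r15a, Dnajb9 and Herpud1 were the members whose arrays ran from intestinal through Dll1 and control down to TGF-β1, though the cultured values of Herpud1 lay within 0.29. The immediate early sum had TGF-β1 above control instead, which was the order of Hyou1. How many of all genes share either order was not counted. The part of tissue digestion, sorting or handling in the members' differences was not tested.

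Some markers of other cells were also higher on the intestinal array, while most mast cell markers were lower. Of 11 mast cell markers, all above background, 3 were at least 2-fold lower in intestinal than in control cells, with a median of -0.74 and a summed signal of 18139 against 35471. The granule proteases Tpsb2 (11.55 in control and 6.21 in intestinal cells) and Cma1 (12.12 and 7.16) were 40.6-fold and 31.1-fold lower, and the amine transporter Slc18a2 was 3.41-fold lower. Both proteases count in the summed signal. Cpa3 (13.06 and 12.76), Gata2 (10.54 and 10.41) and Fcer1g (9.25 and 9.22) differed little, and Hdc (6.62 and 6.90) was higher. Plasma and B cell markers are listed because plasma cells of the lamina propria carry an abundant ER. Of 15 measured, 11 were above background in intestinal cells and 4 in control, with a summed signal of 2531 against 586, and 3 were at least 2-fold higher. Ighm, which makes up most of that sum, read 6.17 in control and 10.76 in intestinal cells, 24.1-fold higher. Jchain (6.99) and Prdm1 (6.40) were at least 3.67-fold and at least 2.44-fold higher, against the background limit, and Cd79a read 5.56. Others of the list did not follow. Tnfrsf17, Irf4, Ms4a1 and Eaf2 were below background on each array. Mzb1 read 5.43 in control and 5.78 in intestinal cells, and Sdc1 (5.12) lay at the limit there.

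Epithelial markers were above background for 13 of 20 in intestinal cells against 3 in control (summed signal 2184 and 589), and 5 were at least 2-fold higher. Cdh1 read 6.16 in control, 7.57 with TGF-β1 (2.66-fold higher) and 10.12 in intestinal cells (15.5-fold higher). Muc2 was 3.52-fold and Fabp1 at least 3.06-fold higher in intestinal cells, and Epcam and Vil1 were below background on each array. Lymphoid markers were above it for 12 of 13 against 5, and 5 were at least 2-fold higher, with Gzma at least 37.0-fold and Cd3g at least 13.2-fold higher. Their summed signal (6381 and 3760) is mostly Gzmb in control, which read 11.70 there and 11.77 in intestinal cells. Gzma (7.92), Nkg7 (7.34) and Il7r (7.08) were also at least 2-fold higher than control on the Dll1 array, where Cd3e and Cd3g were below background. Macrophage and dendritic cell markers were above it for 12 of 14 against 6 (4519 and 1188), and 4 were at least 2-fold higher, with Itgax at least 67.3-fold and C1qa 3.62-fold higher. Itgax, which read 11.19 in intestinal cells, is a large part of the intestinal sum. Csf1r, also at least 2-fold higher, read 6.55 there. Others of the list did not follow. Cd68 and Lyz2 stayed below 2-fold, Xcr1 and Flt3 lay near the limit, and C1qc and Zbtb46 were below background on each array.

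Of 15 granulocyte markers, 2 were at least 2-fold higher in intestinal cells than in control, Siglecf (4.82 in control and 6.29) and Mcpt8 (5.41-fold). Cd200r3 (13.8-fold) and Ly6g (at least 2.45-fold) were lower. On the Dll1 array, 8 of the 15 were at least 2-fold higher than in control and 1, Ly6g, was lower, with 12 above background against 7 and a summed signal of 7281 against 1336. Prg2 read 5.40 in control and 11.45 with Dll1, 66.0-fold higher, and S100a8 and Epx were at least 13.3-fold and at least 13.1-fold higher. Of 17 feeder-type markers, 12 were above background against 7 in control, and 2 were at least 2-fold higher. These were Dll1, the gene that the feeder cells express (4.79 in control and 7.10 in coculture, at least 3.94-fold higher), and Thbs1 (at least 2.12-fold higher). The summed signal of that list (4046 and 4131) is mostly Lgals1, which read 11.55 in control and 11.28 with Dll1. The part of such cells in the members' differences was not tested. In such RNA, the number of cells of a type, the RNA per cell and expression of a marker by the mast cells themselves cannot be told apart.

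Members past 2-fold in intestinal cells were found both with and without an ERSE match. Over the 27 members above background that had a promoter window, the 8 with an ERSE had a median of 0.70 for intestinal minus control and ranged from 0.13 (Syvn1) to 2.61 (Hspa5), all above 0. Hspa5 and Creld2 of these passed 2-fold. The 19 without an ERSE had a median of 0.24, from -0.56 (Sel1l) to 2.34 (Ppp1r15a). Of these, 14 were above 0 and 6 passed 2-fold (31.6%). Herpud1 and Dnajb11, with ERSE-II, differed by 1.62 and 0.52. With TGF-β1 the medians were 0.25 with an ERSE and 0.02 without, and with Dll1 they were -0.07 and 0.04. Against these, the median over the 9964 tested genes with a window and no ERSE was -0.01 for intestinal minus control. Of those genes, 4.38% were at least 2-fold higher.

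**Figure D4:**
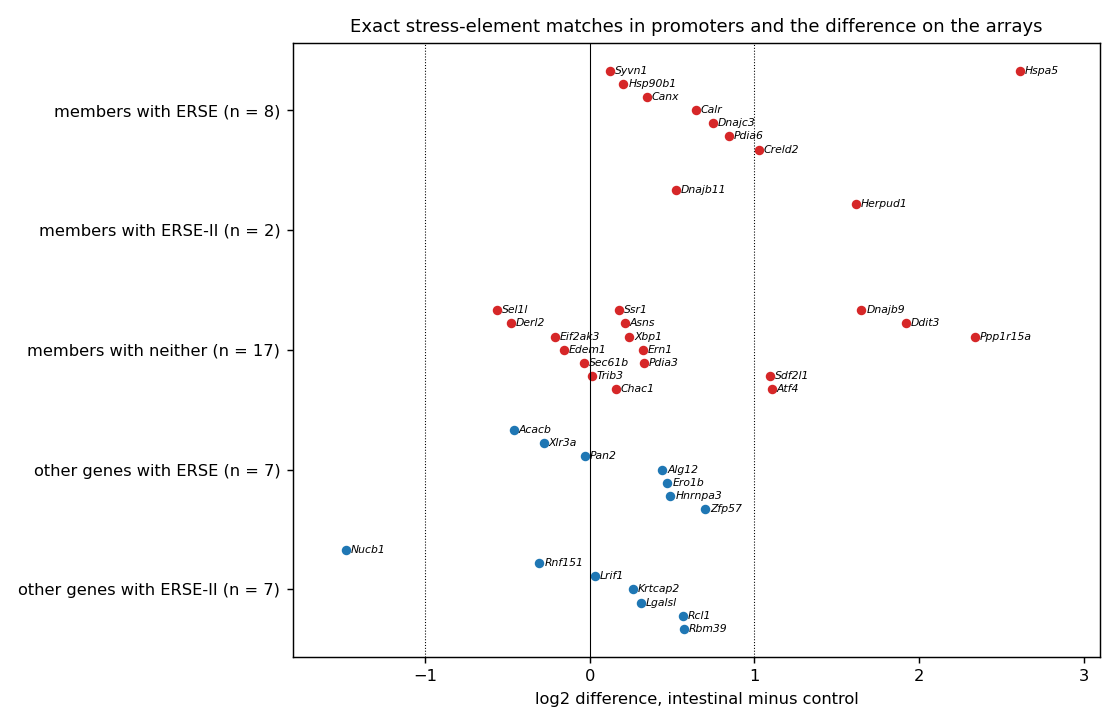
Log2 difference for intestinal minus control (x axis) of genes grouped by exact motif matches in their promoter windows, 1 labelled point for each gene above background, with dotted lines at 2-fold. The 8 members with an ERSE lie above 0, and Ddit3, Ppp1r15a, Dnajb9, Atf4 and Sdf2l1 pass 2-fold with neither an ERSE nor an ERSE-II match.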

How the data were processed

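RNA of 4 mast cell preparations was measured on 1 array each, after amplification from 2 ng, per the labels' protocols. The authors deposited log2 values of 33793 probe sets. Which software summarised and normalized them, and on which build, is not given in the sources used here. Between the sorted values of the arrays the mean gap was 0.055, and the values were used without further normalization.

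Platform annotation gave 1 symbol for 23521 probe sets, several for 1814 and none for 8458. The probe set with the highest mean stood for a gene. Values under the background limit were raised to it, and a gene above it on at least 1 of the arrays compared counted as tested and, at 2-fold, as higher or lower. Medians use measured values. The members, the 20 gene lists, the motifs and the alternatives were chosen with earlier results of these data known. All members are named. From each list of other pathway genes up to 4 genes, and from other lists up to 3, with the largest differences were eligible, with defining markers, and 9 older symbols were updated. The size rule and the motif search were tested on simulated data. Python 3.11.15, pandas 2.3.3, NumPy 2.4.6 and matplotlib 3.10.9 were used.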

Additional observations from a re-analysis of the deposited data

How the results depend on the processing

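No paired analysis was possible because each group has 1 array, and no array could be left out. Over 7 alternatives (array medians subtracted, quantile normalization, a background limit at the 90th or 99th percentile or none, averaged probe sets, an offset of 16 subtracted), 7 or 8 members were at least 2-fold higher for intestinal minus control, 7 or 8 against Dll1 and 5 against TGF-β1, and none was lower. Creld2 was lost with medians subtracted. Atf4 was gained against Dll1 with medians subtracted or with the offset. The members' median for Dll1 minus control ranged from -0.13 to 0.02, so it has no settled sign, and that for intestinal minus control from 0.26 to 0.34. At 1.5-fold, 1 member was higher with TGF-β1 and 1 with Dll1, 9 were higher for intestinal minus TGF-β1 and 13 for intestinal minus Dll1, and 3 were lower for Dll1 minus TGF-β1; the looser threshold adds genes by construction. With the mean of probe sets, Ssr1 differed by -0.44 for Dll1 minus control and by -0.001 for TGF-β1 minus control. Over all genes, 47.9% of calls for Dll1 minus control were higher, and 35.6% with medians subtracted. The number of arrays limits the precision, and genes near the background limit, such as Trib3 and Chac1, have compressed differences.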

Other observations

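Outside the list, few genes with a measured level carried an exact stress element in their promoter window. The 7 tested genes with an ERSE ranged from -0.46 to 0.70 for intestinal minus control, with a median of 0.44, and none passed 2-fold. Among them were Ero1b, an oxidase that supplies disulfide bonds in the ER (5.81, 6.04, 5.68 and 6.28 in control, TGF-β1, Dll1 and intestinal cells), and Alg12, a mannosyltransferase of N-glycan assembly (7.30, 7.09, 7.63 and 7.74). Of the 7 tested genes with an ERSE-II, Nucb1, a calcium-binding protein of the Golgi, read 10.41, 10.38, 10.10 and 8.93 and was the 1 past 2-fold, lower in intestinal cells by -1.48. Krtcap2, a subunit of the oligosaccharyltransferase, read between 7.76 and 8.03. These genes were looked up after the motif search and their values are descriptions.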
